A study of Mus musculus with 12 samples.

Results

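The genes described here are the aminoacyl-tRNA synthetases and their accessory enzymes in BV2 cells, an immortalised mouse microglial line. Members were the rows of the joined count tables whose deposited pathway annotation held the term Aminoacyl-tRNA biosynthesis, which gave 44 of 22935 genes. The rule reads the annotation and no measured value, though it was set with earlier results of these data known. Of these, 20 are synthetases whose symbol does not end in 2 and are called cytosolic below, 18 have a symbol ending in 2 and are called mitochondrial, and 6 are accessory genes. Tarsl2 ends in 2 but encodes a cytosolic threonyl-tRNA synthetase. It stays among the 18 by the rule. Every one of the 44 passed the filter on low counts, so no member was lost to it. The groups were oxy-Hb+C3a, oxy-Hb+C3aRA and oxy-Hb, with 3 libraries each. All 3 groups received oxyhaemoglobin (oxy-Hb) at 10 µM, the oxygen-bound form of haemoglobin, which lysed red cells set free. In oxy-Hb+C3a the cells also received C3a, a fragment of complement component C3, at 20 ug/ul as the label writes it, and in oxy-Hb+C3aRA they received C3aRA (named only by these letters in the labels) at 50 µM. The series title names microglia and the C3/C3aR pathway in white matter injury after subarachnoid haemorrhage. Samples treated with PBS alone were not analysed here, so nothing here bears on how oxy-Hb alone changed the members.

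Aminoacyl-tRNA synthetases attach each amino acid to its transfer RNA before the ribosome can use it. They fall into class I and class II by the fold of their catalytic domain, and most amino acids have a cytosolic enzyme and a separate mitochondrial enzyme encoded by another nuclear gene, while Gars and Kars each serve both compartments from a single gene. In the cytosol Eprs, Iars, Lars, Mars, Qars, Rars, Kars and Dars are held together in the multisynthetase complex. Mitochondria make glutaminyl-tRNA indirectly, through Ears2 and the amidotransferase of Qrsl1, Gatb and Gatc, and Mtfmt formylates the initiator methionyl-tRNA. Pstk and Sepsecs make selenocysteinyl-tRNA. Many cytosolic synthetase genes are known targets of the transcription factor ATF4, which is translated when uncharged transfer RNA or another stress activates the integrated stress response.

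Library totals ran from 12934794 to 20479002 counts. Counts of the less abundant mitochondrial members were low, such as 126 to 279 per library for Cars2, so counting error adds to their spread. The labels do not say whether replicates came from separate cultures, so p-values measure only the spread between these libraries. In RNA from a whole culture, fewer cells that use a gene and less of its RNA per cell cannot be told apart. All 10 microglial markers were detected, summing to 1791 to 2401 CPM (counts scaled to a common library size) per library, although Aif1 was low at 0.754 to 2.90 CPM. This sum was 2032 to 2401 CPM in oxy-Hb+C3a, 1911 to 2056 CPM in oxy-Hb+C3aRA and 1791 to 1931 CPM in oxy-Hb, and its part in the members' differences was not tested. Markers of oligodendrocytes summed to 30.6 to 35.9 CPM and those of astrocytes, neurons, endothelial cells or fibroblasts and red cells to at most 1.66 CPM. Of these markers, 3 of 5 for oligodendrocytes and 2 of 5 for red cells had a row of counts. For astrocytes, neurons and endothelial cells or fibroblasts 1 of 4, 1 of 5 and 1 of 6 did, so these sums rest on few genes. C3a replicate 2 stood apart from the other libraries. On the first principal component of all tested genes it lay at 76.3, against -23.8 to 10.8 for the other 8 libraries, and its counts differed from those of the other C3a libraries by a chi-square of 60.9 and 67.5 per gene, against 5.34 to 10.4 for the other replicate pairs. It was the highest of 9 libraries for 14 members (31.8%) and the lowest for 10 (22.7%), beside 26.7% and 28.8% of all 14146 genes tested. Among the 20 cytosolic members it was the highest for 8 (40%) and the lowest for 4 (20%). Among the 18 mitochondrial members these were 3 (16.7%) and 5 (27.8%). Calls of members in the fit of all 9 libraries are also given without C3a replicate 2, while other values include it unless stated.

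The cytosolic mRNAs were higher in sum in both C3a and C3aRA libraries than in oxy-Hb libraries, while the mitochondrial sum overlapped between groups. Summed over the 20 cytosolic members, levels scaled by the trimmed mean of M-values (TMM) were 6865, 7257 and 6888 CPM in oxy-Hb+C3a, 7166, 7307 and 7035 CPM in oxy-Hb+C3aRA, and 6329, 6197 and 6310 CPM in oxy-Hb. Each of the 6 libraries with an addition exceeded each oxy-Hb library. The 18 mitochondrial members summed to 756, 688 and 781 CPM in oxy-Hb+C3a, 708, 739 and 764 CPM in oxy-Hb+C3aRA, and 711, 725 and 732 CPM in oxy-Hb. The sum of the mitochondrial members therefore equalled 10.6 ± 0.992% of the cytosolic sum in oxy-Hb+C3a, 10.3 ± 0.514% in oxy-Hb+C3aRA and 11.5 ± 0.240% in oxy-Hb (SD, n = 3 each). In the C3aRA group all 3 shares lay below the lowest oxy-Hb share, while in the C3a group replicate 3 reached 11.3% and lay within the oxy-Hb range. The 6 accessory members summed to 201.1 ± 9.68 CPM in oxy-Hb+C3a, 193.5 ± 3.84 CPM in oxy-Hb+C3aRA and 193.8 ± 2.56 CPM in oxy-Hb.

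**Figure D1:**
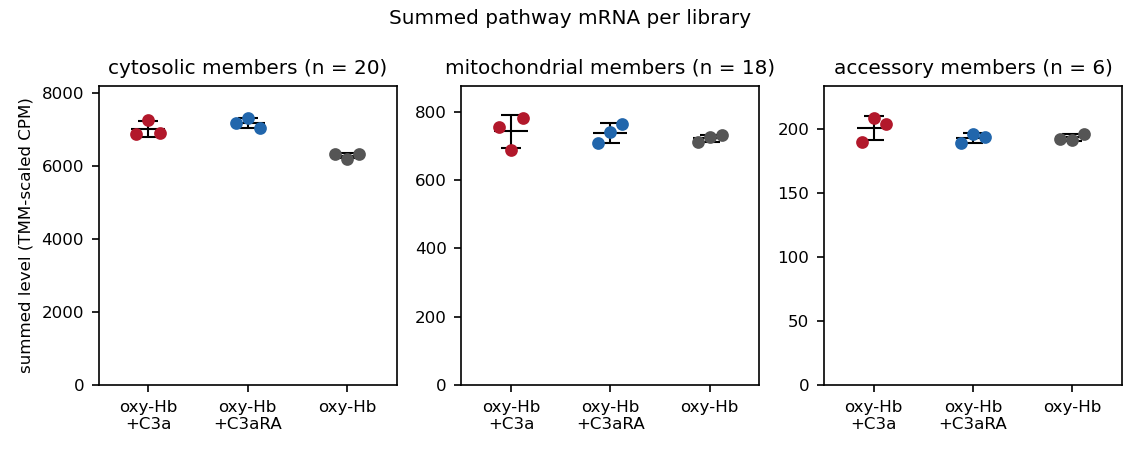
Summed TMM-scaled level (CPM, axis from 0) of the cytosolic, mitochondrial and accessory members per library, points for libraries and bars for mean ± SD over 3 libraries. The cytosolic sums are 6865 to 7307 CPM with C3a or C3aRA and 6197 to 6329 CPM in oxy-Hb, and the mitochondrial sums overlap.

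Because ATF4 is known to act through a short DNA element at many of these genes, the promoters were searched for TGATGNAA, the core of the element that ATF4 binds together with a C/EBP protein, on both strands. RefSeq promoter windows of build GRCm38.p6, with 250 bases before the transcript start and 50 after it, were found for 32 of 44 members, 13 cytosolic, 15 mitochondrial (with 16 windows, since Aars2 has 2) and 4 accessory. The motif occurred in 5 of 13 cytosolic promoters (38.5%), in 0 of 16 mitochondrial windows and in 0 of 4 accessory ones, against 3.97% of all 32851 promoters and 2.39% of the 12030 promoters of tested genes. The narrower TGATGCAA occurred in 4 of 13 cytosolic promoters (30.8%), against 0.895% of all promoters. A match is a description of letters in a window, not of a bound site. All 5 cytosolic promoters with a match are printed. Their genes, Aars, Gars, Iars, Tars and Yars, are among the 8 cytosolic members with an unadjusted p below 0.05 for C3aRA by edgeR, described below. A link between the motif and these changes was not tested. Of the other 3 of those 8, Sars and Qars had a window without a match and Cars had no window in the table, so 7 of the 13 windows belong to these 8 genes. That list comes from a fit that called 0 genes. In the fits that called 8 cytosolic members with C3aRA, Tars was not called, while Eprs, whose window holds no match, was. Each stretch runs 5′ to 3′ in the gene's direction from 130 bases before to 20 after the start, in GRCm38.p6, and capitals mark the motif as read on that strand, where TTGCATCA and TTTCATCA are matches on the other strand. The Aars stretch is chr8:111033712-111033861 on the plus strand, with matches that begin 112 bases before the start and at base 10 after it. The Gars stretch is chr6:55037871-55038020 on the plus strand, with a match 30 bases before the start. The Iars stretch is chr13:49682000-49682149 on the plus strand, with a match at base 8 after the start. The Tars stretch is chr15:11399639-11399788 on the minus strand, with a match 15 bases before the start. The Yars stretch is chr4:129189773-129189922 on the plus strand, with a match at base 4 after the start.
Aars: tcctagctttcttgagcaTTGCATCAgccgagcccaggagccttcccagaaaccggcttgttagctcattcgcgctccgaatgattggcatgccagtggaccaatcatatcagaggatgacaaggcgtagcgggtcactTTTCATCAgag
Gars: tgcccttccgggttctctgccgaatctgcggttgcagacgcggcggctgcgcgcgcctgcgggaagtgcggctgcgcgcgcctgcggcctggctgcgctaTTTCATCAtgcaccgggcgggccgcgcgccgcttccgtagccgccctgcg
Iars: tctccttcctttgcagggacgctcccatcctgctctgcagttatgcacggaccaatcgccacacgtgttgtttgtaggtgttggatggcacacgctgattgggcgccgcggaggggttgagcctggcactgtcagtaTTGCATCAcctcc
Tars: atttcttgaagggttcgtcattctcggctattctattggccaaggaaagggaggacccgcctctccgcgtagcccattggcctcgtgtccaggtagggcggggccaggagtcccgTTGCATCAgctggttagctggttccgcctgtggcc
Yars: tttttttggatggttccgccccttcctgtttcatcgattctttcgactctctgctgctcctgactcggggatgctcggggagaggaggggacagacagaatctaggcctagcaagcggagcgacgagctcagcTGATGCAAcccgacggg

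Levels per length separated the classes set by symbol almost completely. Per kilobase of the longest coding transcript, averaged over 9 libraries, the cytosolic members ran from 33.9 RPKM (CPM per kilobase) for Cars, the cysteinyl-tRNA synthetase, to 422.7 RPKM for Rars, the arginyl-tRNA synthetase of the complex, with a median of 88.5 RPKM. The mitochondrial members ran from 2.20 RPKM for Tarsl2 to 28.6 RPKM for Iars2, the mitochondrial isoleucyl enzyme, with a median of 7.20 RPKM. On this scale 0 of 18 mitochondrial members lay above the lowest cytosolic member. This holds for the classes as set by symbol. Placed by its compartment, Tarsl2 would be the lowest cytosolic member and lie below every mitochondrial one. Per kilobase of all exons of a gene joined, 1 did: Iars2 had 17.6 RPKM, while the lowest cytosolic member, Farsa, the catalytic subunit of phenylalanyl-tRNA synthetase, had 15.2 RPKM. The accessory members ran from 6.22 RPKM for Sepsecs to 20.6 RPKM for Gatc per coding transcript. Within the oxy-Hb group, 4 of the 9 steps between neighbours among the 10 highest members per coding transcript were larger than the SDs of both neighbours. The other 5 steps were within their spread.

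**Figure D2:**
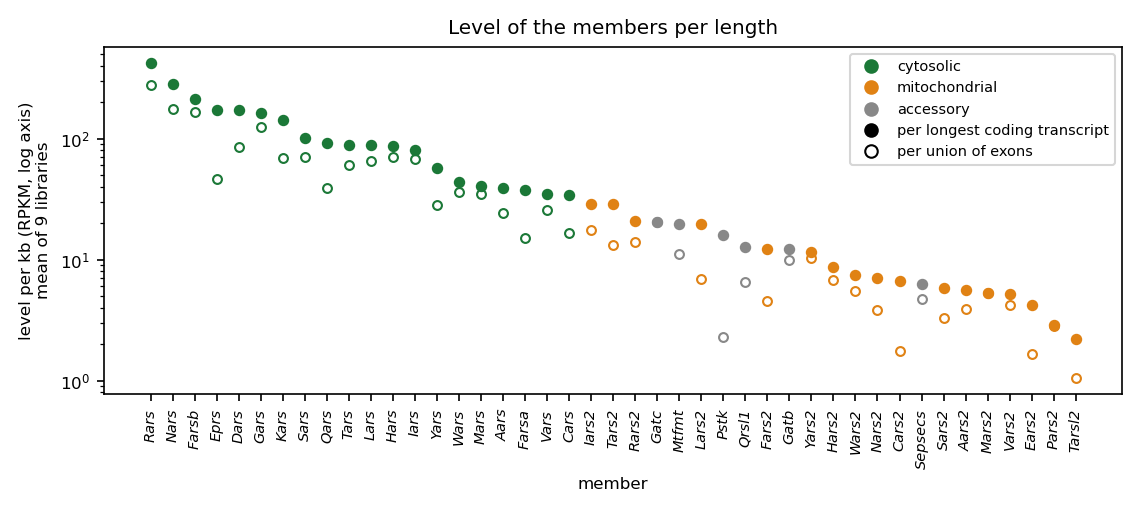
Level per kilobase (RPKM, log axis, mean of 9 libraries) of the members (1 is not shown), filled points per longest coding transcript and open points per union of exons (hidden where the lengths are equal). Cytosolic members lie at 33.9 to 422.7 RPKM and mitochondrial ones at 2.20 to 28.6 RPKM per coding transcript. The lowest point, Tarsl2, is mitochondrial by its symbol only and encodes a cytosolic enzyme.

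Levels per library of the extremes show how far the groups differed within a gene. Rars had 845, 1061 and 869 CPM in oxy-Hb+C3a, 917, 961 and 861 CPM in oxy-Hb+C3aRA and 825, 827 and 857 CPM in oxy-Hb. Farsa had 71.9, 73.7 and 66.2 CPM in oxy-Hb+C3a, 73.1, 62.4 and 69.4 CPM in oxy-Hb+C3aRA and 72.7, 67.6 and 63.0 CPM in oxy-Hb, with all groups overlapping. Rars was highest in C3a replicate 2, and the C3aRA libraries all exceeded the oxy-Hb ones. Tarsl2, at the other end, had 7.34, 5.83 and 8.92 CPM in oxy-Hb+C3a, 5.66, 5.22 and 8.38 CPM in oxy-Hb+C3aRA and 7.61, 6.51 and 7.63 CPM in oxy-Hb, again overlapping. Over all 9 libraries the coefficient of variation ran from 6.08% for Mars to 15.3% for Vars among cytosolic members and from 4.90% for Tars2 to 27.5% for Aars2 among mitochondrial ones.

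With C3aRA, all 20 cytosolic members had a positive log2 fold change against oxy-Hb, while the mitochondrial members lay on both sides of 0. The cytosolic log2 fold changes ran from 0.01 for Farsa to 0.37 for Sars with a median of 0.20, and 16 of 20 had all 3 C3aRA libraries above all 3 oxy-Hb libraries, beside 11.9% of all genes tested that were higher without overlap. Among all genes the median was -0.01 and 48% were positive. With scaling by total counts, which moves the median of all genes to -0.07, 18 of 20 were positive with a median of 0.14, and Farsa and Vars fell below 0. No change passed the test in the fit of 9 libraries. By edgeR's quasi-likelihood test with Benjamini-Hochberg adjustment, 0 of 44 members and 0 of all genes were called at an adjusted p below 0.05 (0% of genes tested), as were 0 members by DESeq2, beside 0.0141% of genes higher and 0.0636% lower, and 0 members by limma-voom. At an unadjusted p below 0.05, 8 members were higher, all of them cytosolic, and 1 was lower, while 3.37% of all genes were higher and 4.78% lower at that level.

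The spread estimate of that fit includes C3a replicate 2, and the calls turned on it. Fitted on the C3aRA and oxy-Hb libraries alone, edgeR called 8 cytosolic members higher, Sars, Qars, Gars, Yars, Iars, Aars, Nars and Eprs, beside 2.48% of genes tested. The fit of 8 libraries without C3a replicate 2 called the same 8 members, beside 1.88% of genes. Limma-voom with library quality weights, which gives less weight to libraries that stand apart, called Sars, Nars and Eprs, beside 1.41% of genes. Tars and Cars were called higher beside these 8 in the authors' deposited table, which made 10 members, beside 2.06% of the genes listed there, while 1.06% were lower. None of these fits called a mitochondrial member in either direction, and none called any member lower, beside 1.94%, 1.38% and 1.42% of genes lower in the 3 fits.

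Sars, the seryl-tRNA synthetase on chromosome 3 (minus strand, 108424865 to 108445209 in the deposited coordinates of GRCm38), had the lowest p of the cytosolic members. Its level was 397, 409.7 and 390.5 CPM in oxy-Hb+C3aRA, against 304, 302 and 322 CPM in oxy-Hb. Every C3aRA library exceeded every oxy-Hb library. Means were 398.9 ± 9.79 CPM with C3aRA and 309.3 ± 10.7 CPM with oxy-Hb (SD, n = 3 each), a log2 fold change of 0.37 ± 0.12 (SE). The adjusted p was 0.49 in edgeR's fit of 9 libraries, 0.00111 in the fit of the 2 groups alone and 0.00294 without C3a replicate 2. In oxy-Hb+C3a Sars had 358, 451 and 309.8 CPM, a wider spread that reached into the oxy-Hb range.

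Yars, the tyrosyl-tRNA synthetase, had 179, 179 and 178 CPM in oxy-Hb+C3aRA, against 154, 154 and 141 CPM in oxy-Hb. Qars, the glutaminyl-tRNA synthetase of the complex, had 266, 272 and 261 CPM with C3aRA and 234, 231 and 204 CPM with oxy-Hb alone. In both genes the groups were apart, with the C3aRA libraries closer together than the oxy-Hb ones. Their log2 fold changes were 0.25 ± 0.09 and 0.26 ± 0.10, with adjusted p-values of 0.513 and 0.529 by edgeR's fit of 9 libraries and 0.0348 and 0.0284 in the fit of 2 groups.

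Aars, the alanyl-tRNA synthetase, had 252, 252 and 261 CPM in oxy-Hb+C3aRA, against 231, 218 and 197 CPM in oxy-Hb. Gars, the glycyl-tRNA synthetase of both compartments, had 383, 415 and 396 CPM in oxy-Hb+C3aRA, against 352, 343 and 316 CPM in oxy-Hb. Tars, the cytosolic threonyl-tRNA synthetase, had 370.3, 359 and 365 CPM in oxy-Hb+C3aRA, against 314, 319.7 and 322 CPM in oxy-Hb. For all 3 genes, which are among those with the motif printed above, the groups did not overlap, and Tars had the tightest oxy-Hb libraries. Their log2 fold changes were 0.25 ± 0.10, 0.24 ± 0.10 and 0.20 ± 0.09. By edgeR the adjusted p-values were 0.547, 0.568 and 0.605 with 9 libraries. In the fit of 2 groups they were 0.0382, 0.0347 and 0.0764, so Tars was not called there.

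Iars, the isoleucyl-tRNA synthetase of the complex, had 387, 406 and 386 CPM with C3aRA and 350.0, 329 and 324 CPM with oxy-Hb alone, and Eprs, which charges both glutamate and proline, had 918, 909 and 912 CPM and 801, 757 and 793 CPM in the same order. Nars, the asparaginyl-tRNA synthetase, had 799, 813 and 780.1 CPM with C3aRA, against 684, 665 and 702 CPM with oxy-Hb. None of these 3 overlapped between groups, and their log2 fold changes of 0.23 ± 0.11, 0.22 ± 0.10 and 0.22 ± 0.11 were close to each other. The remaining cytosolic members had log2 fold changes between 0.01 and 0.21. The 4 whose groups overlapped were Lars, Dars, Vars and Farsa. By enzyme class, the 10 class I members had a median of 0.21 and the 10 class II members 0.19, and both had 8 of 10 members apart from oxy-Hb. The 8 enzymes of the multisynthetase complex had a median of 0.15, and the 12 cytosolic members outside it 0.21.

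**Figure D3:**
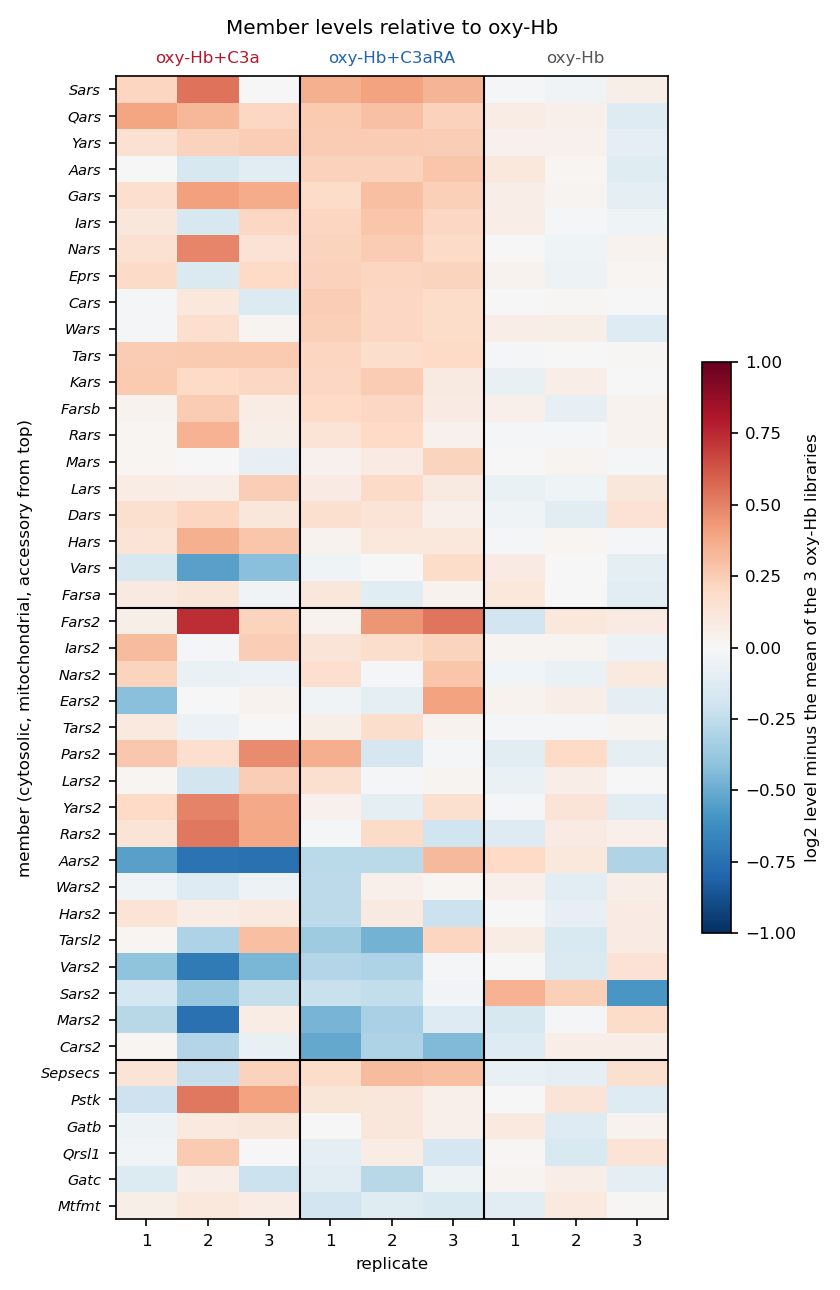
Level of the members (1 is not shown) in each library on the log2 scale minus its mean over the 3 oxy-Hb libraries, cytosolic, mitochondrial and accessory members from top to bottom and ordered within each by the C3aRA fold change. The C3aRA columns are red over nearly all cytosolic rows, from 0.01 for Farsa to 0.37 for Sars in the fit, and mixed over the mitochondrial rows.

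The mitochondrial members had 10 of 18 positive log2 fold changes for C3aRA against oxy-Hb with a median of 0.02, and 2 were higher and 1 lower without overlap, beside 11.9% and 11% of all genes. The lowest p belonged to Cars2, the mitochondrial cysteinyl-tRNA synthetase, with 9.91, 11.4 and 10.4 CPM in oxy-Hb+C3aRA, against 12.9, 14.8 and 14.8 CPM in oxy-Hb. All C3aRA libraries lay below the oxy-Hb ones, and the log2 fold change was -0.42 ± 0.16 with an adjusted p of 0.533 by edgeR. Fars2, the mitochondrial phenylalanyl enzyme, had 22.6, 29.9 and 31.9 CPM with C3aRA and 19.2, 23.7 and 23.3 CPM with oxy-Hb alone. Mars2, the mitochondrial methionyl enzyme, had 49.1, 53.9 and 61.7 CPM with C3aRA and 60.5, 66.6 and 76.6 CPM with oxy-Hb alone. Both overlapped between groups. Iars2 had 157, 163 and 168 CPM in oxy-Hb+C3aRA, against 147, 146 and 138 CPM in oxy-Hb, with no overlap and a log2 fold change of 0.18 ± 0.10.

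Set side by side for the 14 amino acids with 1 gene of their own in each compartment (Tarsl2 aside), the cytosolic fold change for C3aRA was the larger in 14 of 14 pairs, with a median difference of 0.21 on the log2 scale. The difference was widest for cysteine, where Cars had 0.21 and Cars2 -0.42, and for serine, where Sars had 0.37 and Sars2 -0.22. Phenylalanine, glutamate and proline are outside these pairs, because the cytosolic phenylalanyl enzyme has 2 subunit genes and Eprs serves the other two. For phenylalanine the order was the opposite, with 0.35 for Fars2, 0.01 for Farsa and 0.16 for Farsb. Eprs had 0.22, against 0.11 for Ears2 and 0.06 for Pars2. These differences are a description over genes of the same libraries and were not tested. Mitochondrial members have lower counts, and the SEs of their log2 fold changes are wider. Among the accessory members Sepsecs had a log2 fold change of 0.26 ± 0.14 and Mtfmt -0.16 ± 0.11, both with groups apart, while the 4 others overlapped.

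With C3a, the cytosolic members were also mostly above oxy-Hb but less evenly, with Vars, Aars, Mars and Cars below 0. Of 20 cytosolic members, 16 had a positive log2 fold change with a median of 0.14, beside 50.2% of all genes, and 7 were higher and 1 lower without overlap, beside 13.2% and 14.6% of all genes. The mitochondrial members had 11 of 18 positive, a median of 0.03, and 2 higher and 2 lower without overlap. With total-count scaling the median of all genes was -0.09, the cytosolic median 0.05 with 13 of 20 positive, and the mitochondrial median -0.06. By edgeR's quasi-likelihood test 0 of 44 members were called in the fit of 9 libraries, beside 0.905% of genes called higher and 3.04% called lower. At an unadjusted p below 0.05, 10 members were higher and 3 lower, beside 11.5% and 12.6% of genes. DESeq2 called Tars, Gars and Qars higher and Aars2, Vars2 and Vars lower, beside 3.51% and 6.05% of genes. Limma-voom called 0, and with quality weights it called the same members as DESeq2 except Vars2, beside 5% of genes higher and 6.36% lower. The fit of the 2 groups alone called 0, beside 0.0218% and 0.698% of genes.

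Aars2, the mitochondrial alanyl-tRNA synthetase, had the lowest p of all members in this comparison. It had 14.8, 12.9 and 12.8 CPM in oxy-Hb+C3a, against 24.7, 23.2 and 17.5 CPM in oxy-Hb. The groups were apart, with the 3 C3a libraries close together. The log2 fold change was -0.69 ± 0.19 with an adjusted p of 0.0558 by edgeR, and it was 0.0194 without C3a replicate 2. Aars2 was the only member called in the authors' deposited table for C3a, at an adjusted p of 0.0321, beside 1.84% of genes that were lower and 0.379% that were higher there. Vars2, the mitochondrial valyl-tRNA synthetase, had 20.4, 16.5 and 19.6 CPM in oxy-Hb+C3a, against 26.9, 24.3 and 29.9 CPM in oxy-Hb, and its groups were apart as well. Its log2 fold change was -0.52 ± 0.15 with an adjusted p of 0.0594 by edgeR. Yars2 and Rars2, the mitochondrial tyrosyl and arginyl enzymes, went the other way. Yars2 had 33.6, 41.2 and 38.0 CPM in oxy-Hb+C3a, against 29.0, 31.8 and 26.9 CPM in oxy-Hb. Rars2 had 39.2, 51.3 and 46.5 CPM in oxy-Hb+C3a, against 32.6, 37.7 and 36.9 CPM in oxy-Hb. In both genes C3a replicate 2 was the highest of 9 libraries and the groups did not overlap, with log2 fold changes of 0.36 ± 0.13 and 0.35 ± 0.14 that did not pass the test. Without that library they were 0.28 and 0.26.

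Among the cytosolic members, Gars had 378, 446 and 435 CPM in oxy-Hb+C3a, against the 352, 343 and 316 CPM of oxy-Hb given above. Qars had 291, 280.1 and 256 CPM in oxy-Hb+C3a and Tars 379.5, 381 and 383 CPM, against 234, 231 and 204 CPM and 314, 319.7 and 322 CPM in oxy-Hb. All 3 were apart from oxy-Hb, and the Tars libraries agreed most closely. By edgeR's fit of 9 libraries their log2 fold changes of 0.32 ± 0.10, 0.31 ± 0.10 and 0.26 ± 0.09 had adjusted p-values of 0.0815, 0.0843 and 0.0971. Hars, the histidyl enzyme, had 175, 203 and 192 CPM in oxy-Hb+C3a, against 157, 161 and 158 CPM in oxy-Hb. Its locus overlaps that of Hars2 on chromosome 18, and the strand setting of the counting is not given in the sources used here, so reads of the overlap cannot be told apart. Nars had 758, 957 and 756 CPM in oxy-Hb+C3a, against 684, 665 and 702 CPM in oxy-Hb, and its highest value was that of C3a replicate 2. Both were above oxy-Hb in every C3a library, with log2 fold changes of 0.26 ± 0.10 and 0.27 ± 0.11 that did not pass the test. Without C3a replicate 2 the log2 fold changes of Hars and Nars were 0.20 and 0.14.

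Vars, the cytosolic valyl-tRNA synthetase, was the cytosolic member that lay below oxy-Hb without overlap. It had 138, 106 and 116 CPM in oxy-Hb+C3a, against 164, 155 and 145 CPM in oxy-Hb, with the lowest value in C3a replicate 2. The log2 fold change was -0.37 ± 0.12 with an adjusted p of 0.0831 by edgeR. Without C3a replicate 2, edgeR called Qars, Tars, Gars, Kars and Iars2 higher for C3a against oxy-Hb, beside 4% of genes, and Aars2 and Vars lower, beside 5.55% of genes. The cytosolic class II members had a median log2 fold change of 0.24 with 9 of 10 positive, and the class I members 0.08 with 7 of 10 positive. For the pairs of 14 amino acids the cytosolic change was the larger in 11, with a median difference of 0.14. Outside these pairs, Fars2 had 0.36, above 0.06 for Farsa and 0.13 for Farsb, and Pars2 had 0.30 and Ears2 -0.12, with 0.09 for Eprs between them. Without C3a replicate 2, Fars2 had 0.13, Farsa 0.02 and Farsb 0.05, and Pars2 had 0.36, Eprs 0.19 and Ears2 -0.18.

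**Figure D4:**
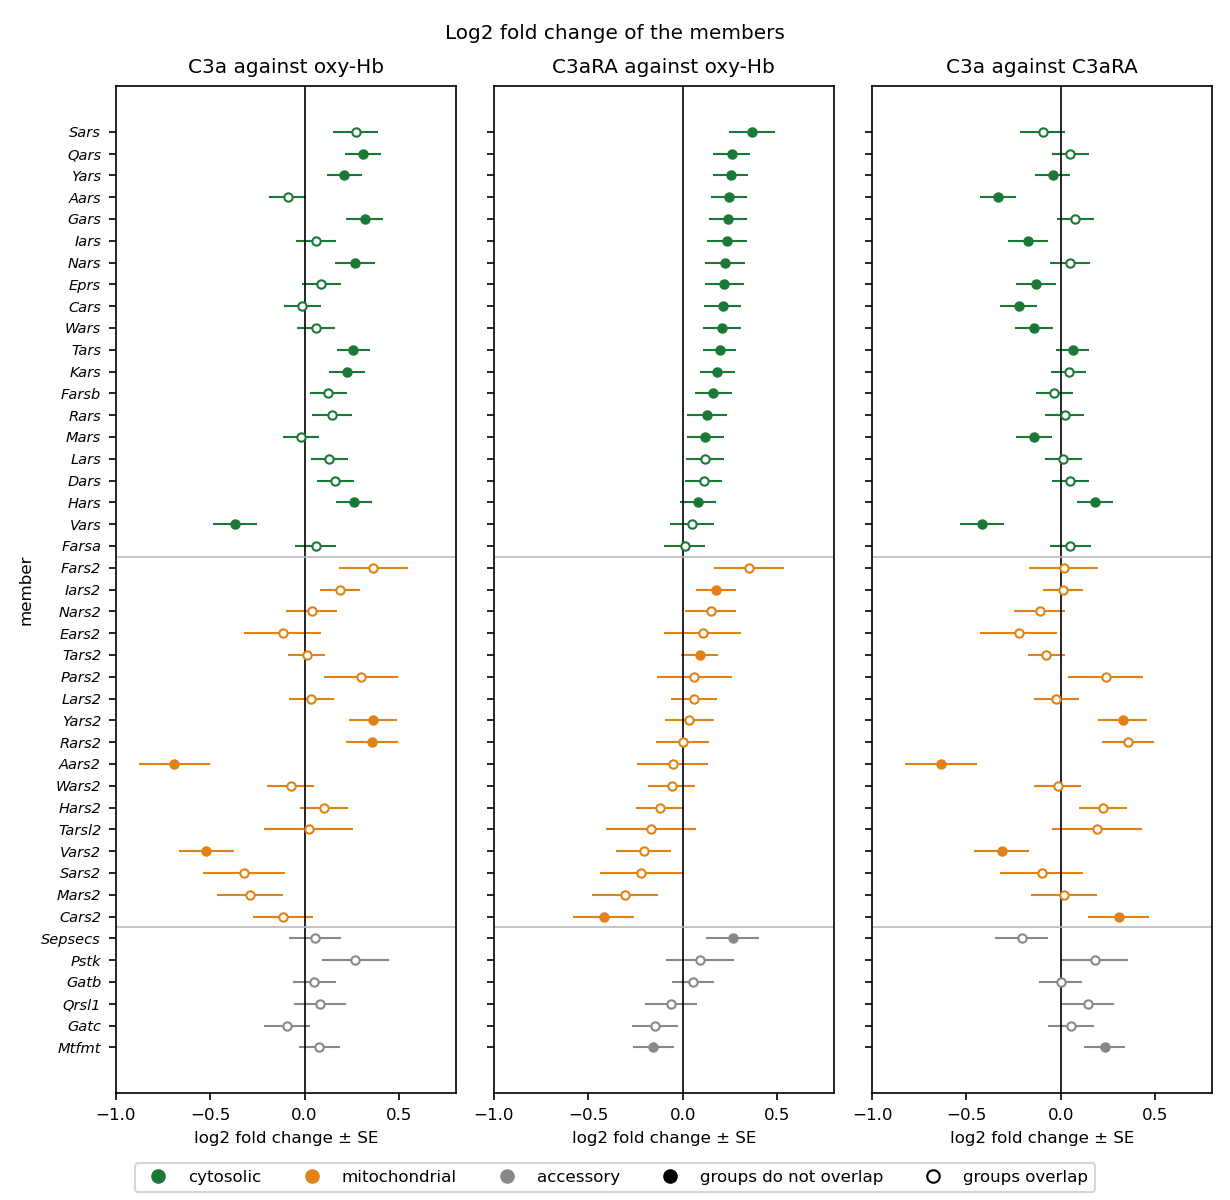
Log2 fold change ± SE from the 9-library fit for the members (1 is not shown) in the 3 comparisons, filled points where the 2 groups do not overlap. For C3aRA against oxy-Hb all 20 cytosolic points lie right of 0, and for C3a the lowest points are Aars2 at -0.69 and Vars2 at -0.52.

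Most members that lay well below oxy-Hb with C3a had a high GC content, with Mars2 (38.8% GC, log2 fold change -0.29) as the exception. Vars (60.9%), Sars2 (60.1%), Aars2 (60.0%) and Vars2 (58.6%) were the 4 members whose longest transcript exceeded 58% GC, a limit set after their values were seen. All 4 had a negative log2 fold change for C3a against oxy-Hb, with a median of -0.44, while 32 of the other 40 were positive with a median of 0.08. Across the 44 members Pearson's r between GC content and log2 fold change was -0.49 for C3a against oxy-Hb, a description over genes that share the same libraries, and -0.13 across 14132 genes. With C3aRA against oxy-Hb it was -0.001 over the members and -0.12 across 14132 genes. When transcript length and GC content were modelled per library, the 4 members had a median of -0.14 for C3a against oxy-Hb, r was -0.16, and the Vars log2 fold change was 0.01. That corrected fit called Qars, Yars, Eprs, Tars, Aars and Iars2 higher, beside 2.66% of genes, and 0 members lower, beside 2.47% of genes. Aars, with 56.4% GC, had a log2 fold change of -0.09 ± 0.10 without the correction and 0.29 ± 0.08 with it, at an adjusted p of 0.0483 by edgeR. Aars2 kept a log2 fold change of -0.36 ± 0.15, with an adjusted p of 0.156. This correction models length and GC content together, so it does not separate them. By rank correlation the C3a log2 fold change went with exon length at -0.28 and with GC content at -0.29 over the members. Across 14132 genes these were -0.20 and -0.15. The part of GC content or length alone in these differences was not tested.

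**Figure D5:**
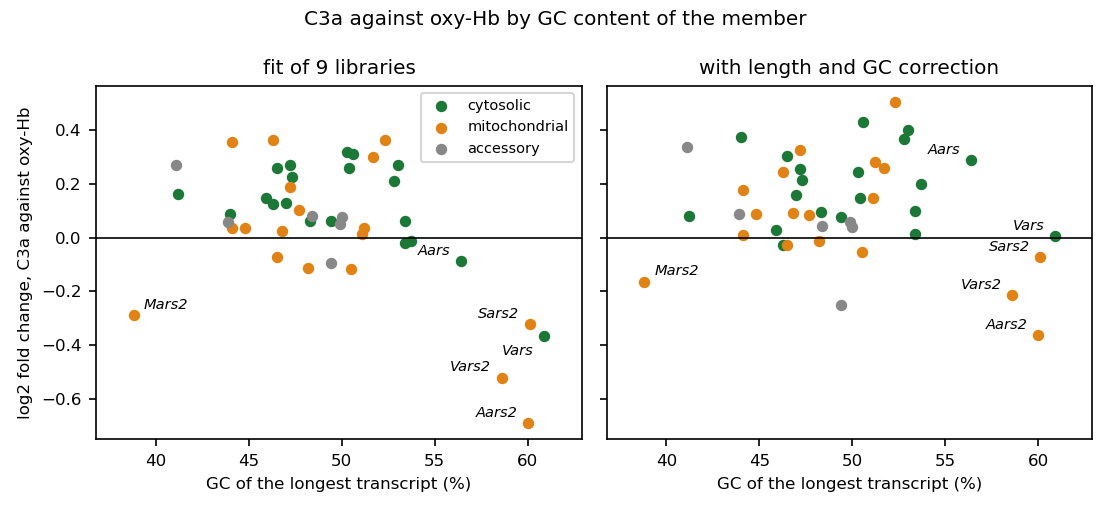
Log2 fold change of each member for C3a against oxy-Hb by the GC content of its longest transcript (%), from the 9-library fit on the left and with length and GC modelled per library on the right. The 4 members above 58% GC have a median of -0.44 on the left and -0.14 on the right.

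Between the additions the cytosolic members were evenly split in sign, but more of them were lower with C3a without overlap. The cytosolic median was -0.01 with 10 of 20 positive, beside 50.7% of all genes, and 8 members were lower and 2 higher without overlap, beside 14.7% and 14.1% of all genes. EdgeR called 1 of 44 members, Vars, which fell with C3a relative to C3aRA, beside 3.32% of genes called lower and 2.87% higher. At an unadjusted p below 0.05, 5 members were lower and 3 higher, beside 12.3% and 12% of genes. Vars had 138, 106 and 116 CPM in oxy-Hb+C3a, against 150.1, 155 and 175 CPM in oxy-Hb+C3aRA. The groups did not overlap, and the log2 fold change was -0.42 ± 0.12 with an adjusted p of 0.0474 by edgeR. The Vars call survived the loss of C3a replicate 1 or C3a replicate 2, and no other of the 9 libraries. With 1 of the other 7 libraries left out the adjusted p was 0.0685 to 0.189. With length and GC content modelled the log2 fold change was -0.20 ± 0.09 at an adjusted p of 0.182, beside 3.65% of genes lower and 4.66% higher, and in the fit of 2 groups the adjusted p was 0.126, beside 0.46% and 0.415%. DESeq2 called Vars, Aars and Aars2 lower, beside 5.65% of genes lower and 5.1% higher. Limma-voom with quality weights added Cars and Sars, beside 6.92% lower and 6.93% higher.

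Aars followed, with 215, 192 and 200.1 CPM in oxy-Hb+C3a, against 252, 252 and 261 CPM in oxy-Hb+C3aRA. Aars2 had 14.8, 12.9 and 12.8 CPM in oxy-Hb+C3a, against 17.9, 17.9 and 27.1 CPM in oxy-Hb+C3aRA. Both had every C3a library below every C3aRA library, with log2 fold changes of -0.33 ± 0.10 and -0.64 ± 0.19 and adjusted p-values of 0.0572 and 0.0614 by edgeR. Cars had 103, 112 and 94.5 CPM in oxy-Hb+C3a, against 123, 120.1 and 118 CPM in oxy-Hb+C3aRA. Iars had 361, 299 and 385 CPM in oxy-Hb+C3a, against 387, 406 and 386 CPM in oxy-Hb+C3aRA. Mars, the methionyl enzyme of the complex, had 119, 117 and 111 CPM in oxy-Hb+C3a, against 121, 124 and 137 CPM in oxy-Hb+C3aRA. In these 3 the C3a libraries were below the C3aRA ones without overlap, by log2 fold changes of -0.22 ± 0.10, -0.17 ± 0.11 and -0.14 ± 0.10 that did not pass the test.

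Hars was one of the 2 cytosolic members that were higher with C3a without overlap, the other being Tars. Hars had 175, 203 and 192 CPM in oxy-Hb+C3a, against 162, 171 and 170.5 CPM in oxy-Hb+C3aRA. Tars had 379.5, 381 and 383 CPM in oxy-Hb+C3a, against 370.3, 359 and 365 CPM in oxy-Hb+C3aRA. Their log2 fold changes of 0.18 ± 0.10 and 0.06 ± 0.09 did not pass the test. Sars, with a log2 fold change of -0.10 ± 0.12, overlapped between the additions. Without C3a replicate 2 edgeR called Aars, Vars, Sars, Cars and Aars2 lower with C3a, beside 6.54% of genes, and called 0 members higher, beside 5.97% of genes. Split by class, the cytosolic class I members had a median of -0.14 for C3a against C3aRA, with 7 of 10 lower without overlap, and the class II members 0.05, with 1 of 10 lower and 2 of 10 higher.

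The mitochondrial members were divided between C3a and C3aRA as well, with 9 of 18 positive and 2 higher and 2 lower without overlap, beside 14.1% and 14.7% of all genes, shares of a like size. Yars2 had 33.6, 41.2 and 38.0 CPM in oxy-Hb+C3a, against 30.1, 27.3 and 32.5 CPM in oxy-Hb+C3aRA. Rars2 had 39.2, 51.3 and 46.5 CPM in oxy-Hb+C3a, against 35.3, 40.8 and 31.1 CPM in oxy-Hb+C3aRA. Vars2 had 20.4, 16.5 and 19.6 CPM in oxy-Hb+C3a, against 21.9, 21.7 and 26.5 CPM in oxy-Hb+C3aRA. Yars2 was higher and Vars2 lower with C3a without overlap, while 1 C3aRA library of Rars2 reached into the C3a range. Their log2 fold changes of 0.33 ± 0.13, 0.35 ± 0.14 and -0.31 ± 0.15 did not pass the test. Of the accessory members, Mtfmt was apart between the additions, with 42.6, 44.1 and 43.1 CPM in oxy-Hb+C3a, against 35.9, 37.7 and 36.9 CPM in oxy-Hb+C3aRA.

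Genes around the pathway were taken from lists chosen with earlier results of these data known. Of 8 genes for complex scaffolds and tRNA editing or delivery, 1 was called higher with C3a than with C3aRA, beside 2.87% of all genes. This was Aimp2, a scaffold protein of the multisynthetase complex. It had 30.8, 30.1 and 36.5 CPM in oxy-Hb+C3a, against 21.0, 23.6 and 19.5 CPM in oxy-Hb+C3aRA, a log2 fold change of 0.60 ± 0.15 at an adjusted p of 0.0324 by edgeR. Of 18 genes for tRNA transcription and processing, 1 was called higher with C3a than with C3aRA, beside the same 2.87%. This was Trmt6, a subunit of the tRNA methyltransferase that modifies adenosine. Its levels were 114, 120.5 and 124 CPM in oxy-Hb+C3a, against 70.9, 79.3 and 86.1 CPM in oxy-Hb+C3aRA, a log2 fold change of 0.60 ± 0.12 at an adjusted p of 0.0157 by edgeR. Neither gene overlapped between the additions. With each library left out in turn, Aimp2 was called in 5 of 9 fits and Trmt6 in 7 of 9, and without C3a replicate 2 the adjusted p-values were 0.00281 and 0.000271. None of 6 cytosolic elongation factors and none of 9 mitochondrial translation factors tested was called by edgeR in any of the 3 comparisons. At an unadjusted p below 0.05, 4 and 3 were higher and 0 lower for C3a against oxy-Hb, beside 11.5% and 12.6% of genes. For C3aRA against oxy-Hb 0 and 1 were higher and 0 lower, beside 3.37% and 4.78%. Between the additions 1 elongation factor was higher and 1 lower, beside 12% and 12.3%, and 0 mitochondrial factors either way. Of the 8 scaffold and editing genes, 6 were higher and 1 lower with C3a than in oxy-Hb without overlap, beside 13.2% and 14.6%.

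The ATF4 list held 26 tested genes of amino acid supply and stress. With C3aRA against oxy-Hb 21 of 26 had a positive log2 fold change with a median of 0.15, beside 48% of all genes positive. Of these genes 11 were higher and 2 lower without overlap, beside 11.9% and 11% of all genes. EdgeR called 0 with 9 libraries, and 5 were higher and 2 lower at an unadjusted p below 0.05, beside 3.37% and 4.78% of all genes. Asns, the asparagine synthetase, averaged 372.0 ± 6.45 CPM in oxy-Hb+C3aRA and 294.1 ± 13.6 CPM in oxy-Hb (SD, n = 3 each), a log2 fold change of 0.34 ± 0.12 with an adjusted p of 0.494 by edgeR. Fitted on the C3aRA and oxy-Hb libraries alone, 4 genes of the list were called higher and 2 lower, beside 2.48% and 1.94% of genes. Slc1a5, a carrier of neutral amino acids, and Ddit4, an inhibitor of mTORC1 signalling, were the 2 that were lower without overlap. Slc1a5 averaged 120.7 ± 2.84 CPM in oxy-Hb+C3aRA and 150.1 ± 12.6 CPM in oxy-Hb. With C3a against oxy-Hb the list had 15 of 26 positive, a median of 0.02 and 0 called by edgeR, with 2 higher and 2 lower at an unadjusted p below 0.05, beside 11.5% and 12.6% of all genes.

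Between C3a and C3aRA 3 genes of the ATF4 list were called lower with C3a, beside 3.32% of all genes, and none higher. Ddit3, the stress transcription factor CHOP, had 13.6, 23.3 and 13.5 CPM in oxy-Hb+C3a, against 53.4, 42.4 and 33.9 CPM in oxy-Hb+C3aRA and 34.3, 22.0 and 16.5 CPM in oxy-Hb. Nupr1, a stress-induced chromatin protein, had 55.1, 68.1 and 48.3 CPM in oxy-Hb+C3a, against 88.2, 92.7 and 78.2 CPM in oxy-Hb+C3aRA. Aldh18a1, an enzyme of proline synthesis, had 138, 126 and 128 CPM in oxy-Hb+C3a, against 168, 162 and 164 CPM in oxy-Hb+C3aRA. All 3 had every C3a library below every C3aRA library. By edgeR the log2 fold changes were -1.36 ± 0.28, -0.59 ± 0.13 and -0.33 ± 0.09, with adjusted p-values of 0.0214, 0.0197 and 0.0481. With each library left out in turn they were called in 6, 5 and 2 of 9 fits, and without C3a replicate 2 the adjusted p-values were 0.0111, 1.04e-05 and 0.00855. In the fit of these 2 groups alone 1 gene of the list was called lower, beside 0.46% of genes. In the oxy-Hb libraries Ddit3 varied from 16.5 to 34.3 CPM, a range that overlapped that of both additions.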

How the data were processed

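RNA-seq counts of 9 BV2 libraries were used. The authors deposited 2 tables of raw read counts per Ensembl gene, with their own log2 fold change, p-value and adjusted p-value, coordinates and pathway terms. Per the submitters' processing notes the builds were GRCm38 and mm10. The libraries were made from 1.3 ug of total RNA with a SMARTER kit, per the labels' protocols, while aligner, counting tool, strand setting and the authors' test were not given in the sources used here. Counts of oxy-Hb differed in 0 of 22935 rows between the tables, so all libraries entered 1 fit, and 9 symbols that a spreadsheet had turned into dates were restored from the identifiers.

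Counts were filtered with filterByExpr (minimum count 10), which left 14146 genes, scaled by TMM and tested with edgeR 4.0.16 in R 4.3.3 (robust quasi-likelihood F test, 1 coefficient per group, Benjamini-Hochberg adjustment over all genes tested, called below 0.05). The biological coefficient of variation was 15.8%. Levels are TMM-scaled CPM (SD over 3 libraries). Where an SE follows an edgeR log2 fold change, it is the absolute log2 fold change divided by the square root of the quasi-likelihood F. Between single genes, levels were set side by side only per length, as RPKM. The class sums and their ratio are in CPM, not scaled by length. Lengths and GC content came from GENCODE M21 (GRCm38), where 40 of 44 members had the deposited coordinates. The scripts were tested on simulated counts. Alternatives were other scalings and filters, DESeq2 1.42.0, limma 3.58.1 voom with and without library quality weights, fits of 2 groups, the replicate number as a block, length and GC modelled by splines per library, each library left out, and thresholds of 0.01 and 0.1. Their combinations with C3a replicate 2 left out, lengths per coding transcript and the GC limit of 58% were chosen after seeing the data. Per library values are given for Sars and, in each comparison, for the 6 cytosolic and 4 mitochondrial members with the lowest p and the extremes of level. From the other lists, genes that were called or among the 4 lowest p are named. Eprs, Nars and Mtfmt are given beyond this rule. The members and all lists were chosen with earlier results of these data known. Replicate numbers of the labels were not used to pair the samples, except in the fits with the block. Protein sequences were not analysed here, and 1 member that enters the counts and sums is not reported here.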

Additional observations from a re-analysis of the deposited data

How the results depend on the processing

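For Sars and the members with the lowest p in each comparison, 32 results in all, 790 alternative fits kept the direction and the side of the threshold in 689, crossed to a call in 84, lost it in 13 and reversed the direction in 4. Members given only as extremes of level or beyond the naming rule are not in this tally, and of these Farsa kept its sign for C3aRA against oxy-Hb in 16 of 22 alternatives and Tarsl2 for C3a against oxy-Hb in 19 of 23. The reversals were Vars for C3a against oxy-Hb, at 0.0054 with length and GC modelled, 0.0031 with the replicate block as well and 0.087 with length and GC modelled without C3a replicate 2, and Sars for C3a against C3aRA, at 0.033 without C3a replicate 3, in a range of -0.26 to 0.033 over the libraries left out. For C3a against oxy-Hb 0 members were called higher in the fit of 9 libraries, beside 0.905% of genes. There were 3 by DESeq2 (3.51% of genes), 3 with quality weights (5%) and 6 with length and GC modelled (2.66%). With length and GC modelled without C3a replicate 2 there were 8. The fit of 2 groups without that library gave 1, and an adjusted p below 0.1 gave 3. For these last 3 settings the share of all genes is not given here, so the counts cannot be set against it. Lower members numbered 0 with 9 libraries (3.04% of genes), 3 by DESeq2 (6.05%) and 2 with quality weights (6.36%). They numbered 2 with total-count scaling, 2 with no count filter and 2 with a mean of at least 5 CPM. The fit of 2 groups without C3a replicate 2 gave 2, and a threshold of 0.1 gave 3. The share of all genes is not given here for these other settings either. Leaving out each library gave 0 to 5 higher and 0 to 3 lower, beside 0 to 747 and 54 to 891 of all genes. For C3aRA against oxy-Hb 0 members were higher with 9 libraries, and 3 with quality weights, beside 200 of all genes. The fit of 2 groups gave 8, beside 338 of all genes. With length and GC modelled without C3a replicate 2 there were 12. The count of all genes in that fit is not given here, so the 12 cannot be set against it. Leaving out each library gave 0 to 8, with 8 without C3a replicate 2, beside 0 to 274 of all genes. For C3a against C3aRA 1 member was lower with 9 libraries, beside 3.32% of genes. The count was 0 in the fit of 2 groups (0.46% of genes) and with length and GC modelled (3.65%). It was 3 by DESeq2 (5.65%) and 5 with quality weights (6.92%). The remaining settings have no share of all genes given here. Among them it was 0 with total-count scaling or at 0.01, and 2 with no count filter or with a mean of at least 5 CPM. It was 3 at 0.1 or with length and GC modelled without C3a replicate 2, and 5 in the fit of 2 groups without that library. Leaving out each library gave 0 to 5, beside 32 to 955 of all genes. Calls over all genes moved as well. For C3a against oxy-Hb they went from 128 higher and 430 lower to 3 and 96 in the fit of 2 groups. They were 497 and 856 by DESeq2, 707 and 899 with quality weights, and 376 and 350 with length and GC modelled. For C3aRA against oxy-Hb they went from 0 to 338 higher and 265 lower in the fit of 2 groups. For C3a against C3aRA they went from 406 higher and 470 lower to 56 and 62 in that fit. Apart from fits that left out 1 library, calls of higher genes reached 814 for C3a and 556 for C3aRA against oxy-Hb. Between the additions they reached 1069. Calls of lower genes reached 899, 265 and 1008 in the same order. The causes of these shifts were not tested, beyond the fewer libraries of the smaller fits.

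Correlations between same-numbered replicates ran from -0.04 to 0.17, 2 of 9 pairs exceeded 0.1, and 2 of 9 libraries correlated best with their own number. With 3 libraries per group these values cannot decide whether the replicates were paired. With the replicate block, 0 members were higher and 1 lower for C3a against oxy-Hb, 0 were called for C3aRA against oxy-Hb and 1 was lower for C3a against C3aRA. With the block and length and GC modelled, 7 were higher for C3a against oxy-Hb and 0 lower for C3a against C3aRA. The share of all genes called in the fits with the block is not given here, so these counts cannot be set against it. With 3 libraries per group the SEs of single cytosolic members were 0.09 to 0.12 on the log2 scale, beside cytosolic medians of 0.20 for C3aRA and 0.14 for C3a against oxy-Hb.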
